A study of Mus musculus with 40 samples.

Results

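The ADAM, ADAMTS and ADAMTS-like genes, a family of metalloproteases and their protease-free relatives, were examined by RNA sequencing of mouse cardiac fibroblasts. Members were all protein-coding genes of the mouse annotation (GENCODE M21 on GRCm38) whose symbol is Adam, Adamts or Adamtsl followed by a number, provided that their counts over all 40 libraries summed to 10 or more. Of 57 such symbols, 45 met the rule (21 ADAM, 19 ADAMTS and 5 ADAMTSL genes), among 25210 genes with at least 10 counts. The 12 others had 5 counts or fewer, and 8 of them had none. Nearest to the limit, *Adam7* had 11, *Adam1b* 13 and *Adamts19* 27 counts inside the rule, and *Adam2* and *Adam39* had 5 and *Adam30* 3 counts outside it.

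The cells came from hearts of adult male C57BL/6J mice with floxed alleles of *Map3k7*, the gene for TGFβ-activated kinase 1 (TAK1fl/fl), and were used at passage 1. All groups thus carried the floxed alleles and an adenovirus, which carried either Cre (iCre) or LacZ as the control, both driven by the CMV promoter. The cells were serum-starved and kept without ligand (CTRL) or treated for 24 h with a growth factor or cytokine. Basic fibroblast growth factor (bFGF) was used at 20 ng/ml, TGFβ and TNFα each at 10 ng/ml and IL-1β at 15 ng/ml, and each of the 10 groups had 4 libraries. The growth medium before starvation also contained bFGF (20 ng/ml). The libraries come from whole cultures, so that fewer cells of a type and less RNA per cell cannot be told apart.

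ADAM proteases sit in the cell membrane, where they cut the outer part off other membrane proteins, such as cytokines, growth factors, adhesion molecules and their receptors. ADAMTS proteases are secreted and cut matrix proteins: the proteoglycanases among them cleave aggrecan and versican, and others trim procollagens or act on fibrillin microfibrils and cartilage oligomeric matrix protein (COMP). ADAMTS-like proteins share their ancillary domains but lack the protease domain, and bind the matrix. TIMP proteins inhibit many of these proteases, and proprotein convertases such as furin remove their inhibitory prodomain. In the heart, fibroblasts are a main source of the matrix on which the secreted members act.

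Each library held between 25360947 and 66160732 counts on genes, with a median of 36183962. Levels are given as CPM, read counts relative to the total of each library after TMM scaling, and in the order of replicates 1 to 4 where 4 values are listed. Differences are log2 fold changes from the quasi-likelihood test of edgeR, given ± their standard error (SE), with p-values adjusted by the Benjamini-Hochberg procedure over all genes tested, and a gene was called at an adjusted p of at most 0.05. *Map3k7*, counted over all of its exons although only the floxed part is deleted, ranged from 144 to 251 CPM in LacZ libraries and from 122 to 160 CPM in iCre libraries, and iCre libraries were below LacZ libraries under each of the 5 conditions without overlap. The summed level of 10 fibroblast markers was 15351 to 69714 CPM, against 3.84 to 26.1 CPM for 4 endothelial, 0.0952 to 2.08 CPM for 3 leukocyte, 15.7 to 157 CPM for 5 macrophage, 0.57 to 110.6 CPM for 4 cardiomyocyte and 72.6 to 1921 CPM for 5 pericyte and smooth muscle markers. *Cd3e* and *Myh6*, which define T cells and cardiomyocytes, had fewer than 10 counts. Libraries that share a replicate number deviated together, and replicate 2 stood apart: of 50 member and group combinations in which 1 library was set apart from the other 3, 40 were replicate 2. Values with the replicate number as a block, and counts without replicate 2, are therefore given beside many results, and the map of log2 fold changes marks every call of the genes it shows that was made with the block alone. In the 12 libraries of iCre cells given TGFβ or a cytokine, levels also rose with the GC content of a gene, with slopes of 0.19 to 0.32 log2 units per 10 percentage points, against -0.23 to -0.00023 in the other 28, so that for calls in these groups values corrected for GC content are added where the correction ended the call or moved the value by over 1.5 times, and for some others.

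To set the members side by side, levels were divided by the length of each gene's exons. In LacZ cells without ligand, *Adamts2*, a procollagen N-proteinase, had the highest level of the family (136 ± 30.3 CPM per kilobase of exon, SD, n = 4), followed by the sheddase *Adam9* (109 ± 21). Next came *Adamts1* (58.8 ± 18.3), *Adamtsl3* (51.5 ± 17.3) and *Adamts5* (51 ± 17.7), whose differences were within their SD, and *Adam10* (39.3 ± 3.63). *Adamts4*, an aggrecanase like *Adamts5*, was at 3.48 ± 0.865 CPM per kilobase and ranked 19. A mean of at least 1 CPM in some group was reached by 33 of the 45 members. The 12 below it included genes known from testis, such as *Adam3*, *Adam4*, *Adam18* and *Adam21*.

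**Figure D1:**
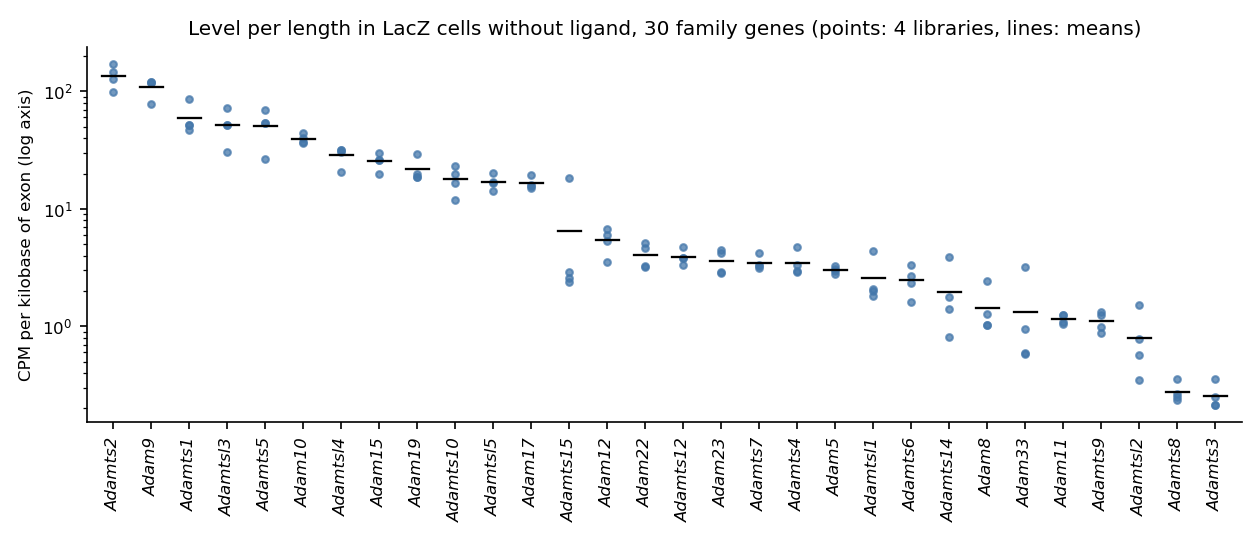
Levels of the 30 members whose mean over all libraries was 1 CPM or more, in LacZ cells without ligand. The vertical log axis gives CPM per kilobase of exon, points are the 4 libraries and lines their means. *Adamts2* is highest, and the points of *Adamts15*, *Adamtsl1* and *Adam33* include 1 library, replicate 2, well above the other 3.

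The 4 ligands were compared with CTRL in LacZ cells. With bFGF, 11 members were called (5 higher, 6 lower), where 11.6% of all genes tested were called (7% higher, 4.64% lower). TGFβ gave 23 called members (8 higher, 15 lower) against 36.9% of all genes (17.5% higher, 19.3% lower). The count for IL-1β was 14 (6 higher, 8 lower) against 20.7% (11.1% and 9.54%), and that for TNFα 15 (5 higher, 10 lower) against 21.3% (10.9% and 10.4%). With the replicate block these counts were 19 (27.3% of all genes) for bFGF, 25 (42%) for TGFβ, 28 (33.5%) for IL-1β and 27 (35.5%) for TNFα, and without replicate 2 they were 15 (18.2%), 24 (37.1%), 20 (23.4%) and 22 (23.5%). Over the 30 members with a mean of at least 1 CPM, the median log2 fold change was -0.0049 with bFGF, -0.42 and 0.26 with TGFβ and IL-1β, and -0.17 with TNFα, where the 13090 genes of that level had medians of 0.032, 0.016, 0.0036 and -0.0034. Sums of cell type markers also differed between the ligand groups and LacZ CTRL. Those of the endothelial markers (24 to 26.1 CPM in CTRL, at most 15.8 CPM with any ligand) and of 3 Schwann cell markers (9.9 to 15.9 and at most 9.67 CPM) were lower with all 4 ligands without overlap. The cardiomyocyte markers had means of 49.5 CPM in CTRL, 12.8 for bFGF, 7.43 for TGFβ, 1.18 for IL-1β and 3.64 for TNFα, where only the group with bFGF overlapped CTRL. The sum of 3 epicardial markers was below CTRL without overlap with bFGF, TGFβ and IL-1β (means of 2.05, 1.8 and 1.54 against 3.87 CPM). With TGFβ the fibroblast markers were above CTRL without overlap (means of 60368 and 39911 CPM), as were the pericyte and smooth muscle markers (932 and 357 CPM). The other ligand groups overlapped CTRL in both lists, with fibroblast means of 26350.2 CPM for bFGF, 50580.4 CPM for IL-1β and 30913 CPM for TNFα, and a pericyte mean of 209 CPM for TNFα. The leukocyte and macrophage sums overlapped CTRL with every ligand. The part of these sums in the differences was not tested.

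Between iCre and LacZ cells, no member was called in CTRL, where 0.0754% of all genes were called, or with bFGF, where 0% were. At an unadjusted p under 0.05 there were 6 such members in CTRL and 3 with bFGF, and the Wald test of DESeq2 called 2 in CTRL and 0 with bFGF. With the replicate block, 11 members were called in CTRL (14.5% of all genes) and 13 with bFGF (13.9%). With TGFβ 4 members were called (2 higher, 2 lower), where 8.37% of all genes were (2.51% higher, 5.87% lower). With IL-1β there were 6, all lower, where 16.1% of all genes were called and 8.98% were lower. With TNFα there were 14 (4 higher, 10 lower), where 27.3% were called (14.8% higher, 12.6% lower). The replicate block raised these counts to 16 (20.8% of all genes), 18 (29.5%) and 18 (32.2%), and without replicate 2 they were 10 (12.5%), 12 (16.6%) and 19 (24.4%). With the block and the GC correction together, 1 member was higher and 11 were lower with TGFβ, against 9.21% of all genes (4.44% higher, 4.77% lower). With IL-1β 5 were then higher and 13 lower, against 22.8% (12% and 10.8%), and with TNFα 4 and 15, against 28.3% (15.5% and 12.8%). Every iCre library had a lower sum of the fibroblast markers than every LacZ library with IL-1β (22845 to 35689 against 36617 to 69714 CPM) and with TNFα (15351 to 23386 against 25794 to 34598 CPM), whereas the groups overlapped with TGFβ. In CTRL the endothelial sum was lower in iCre libraries without overlap (9.87 to 17.9 against 24 to 26.1 CPM), and with IL-1β the cardiomyocyte sum was higher (2.24 to 16.2 against 0.57 to 1.85 CPM). The sum of the pericyte and smooth muscle markers had a mean of 209 CPM in LacZ and 803 CPM in iCre libraries with TNFα, and the groups overlapped under these 3 ligands. The part of these sums in the differences was not tested.

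The interaction, which is a ligand's log2 change in iCre cells minus that in LacZ cells, was tested over 16 libraries for each ligand. It was called for no member with bFGF (0% of all genes; 0 members at an unadjusted p under 0.05, and 0 by DESeq2), and for 1 with TGFβ, which was negative (4.51% of all genes, 3.62% negative). It was called for 4 members with IL-1β, all negative (7.7%, 4.94% negative), and for 11 with TNFα, 3 positive and 8 negative (16.1%, 8.38% positive and 7.7% negative). With the block the counts were 0 (0%) with bFGF, 5 (8.04%) for TGFβ, 13 (16.9%) for IL-1β and 17 (25.1%) for TNFα, with block and GC correction they were 1 (2.79%), 12 (12.1%) and 17 (21.2%) for the last 3 ligands, and without replicate 2 they were 0 (0.00397%), 4 (5.27%), 6 (6.85%) and 13 (13.5%). The comparisons of ligands share the LacZ CTRL libraries, and the interactions share libraries with both other kinds of comparison. The summed level of all 45 members was 4399 ± 569 CPM in LacZ CTRL and 4792 ± 792 CPM in LacZ TNFα libraries, and was lowest, at 3060 ± 641 CPM, in iCre cells with TNFα (SD, n = 4 each).

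**Figure D2:**
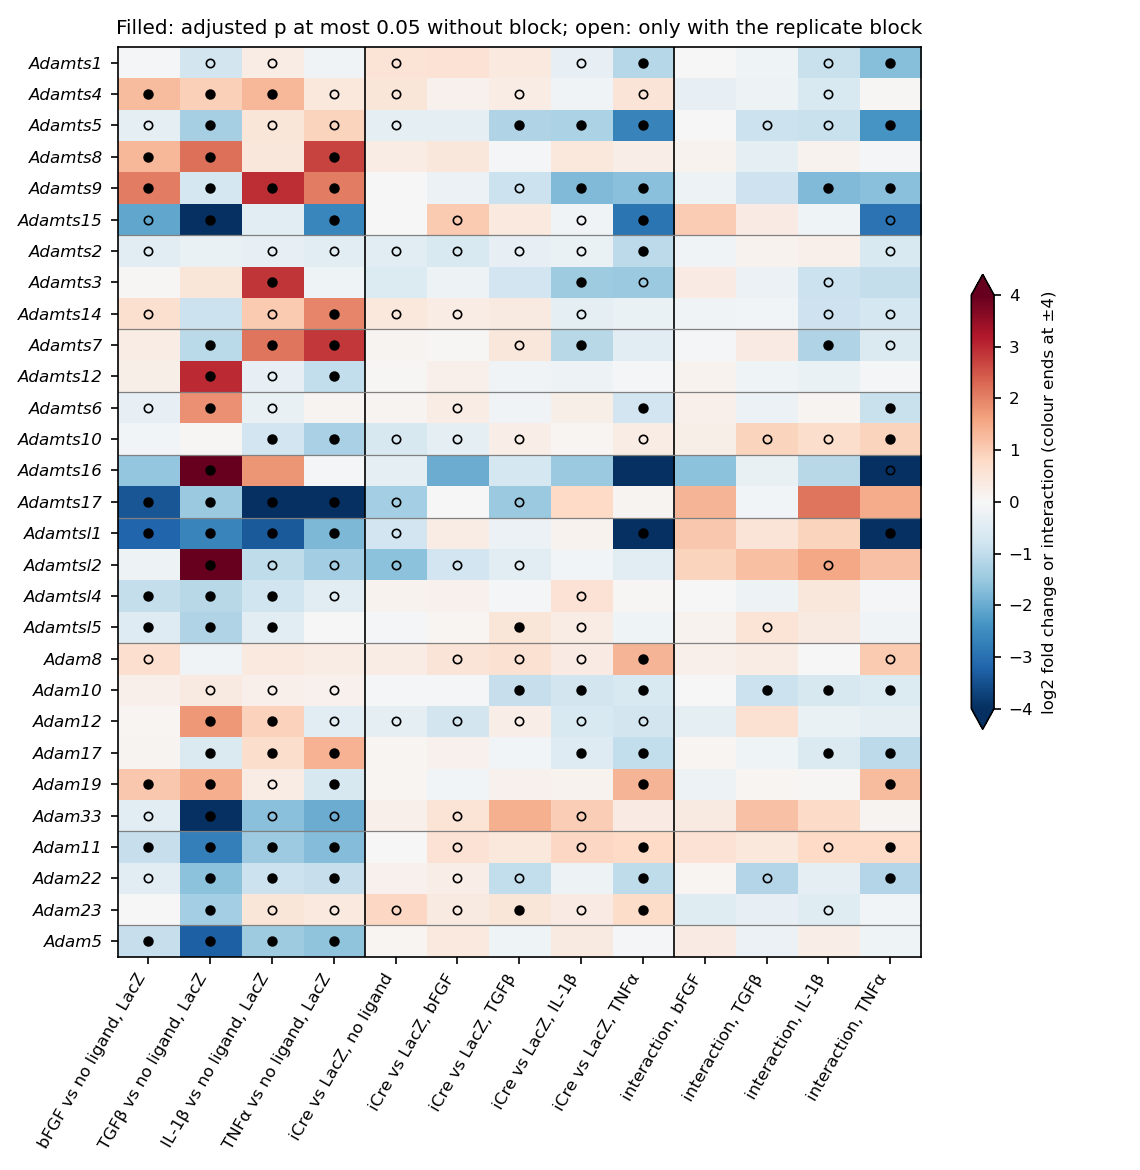
Log2 fold changes, or interactions on the log2 scale, of the 28 described members and *Adam10* (rows, grouped by role) in the 13 comparisons (columns). Red is higher and blue lower. Filled points mark an adjusted p of at most 0.05, open points those that reached it only with the replicate block. The columns for iCre against LacZ without ligand and with bFGF hold no filled point.

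Promoter sequences are shown for 5 members in 2 groups that moved together, so that their upstream sequence can be set side by side. *Adam19* is shown as well, with 1 of its 3 windows, which was chosen for its matches. RefSeq (GRCm38.p6) gave windows for 24 of the 45 members, and the 250 bases before the start were searched on both strands for 6 motifs: NF-κB (by its usual consensus), AP-1 (TGANTCA), CRE (TGACGTCA), the SMAD box (CAGAC), the GC box (GGGCGG) and a TATA motif (TATAAA). Of 32851 windows of all genes, 3.9% held the NF-κB motif, 6.75% AP-1, 1.55% CRE, 42.2% the SMAD box, 32.7% the GC box and 12.4% TATA. Of the 24 members, 2 held NF-κB, 1 AP-1, 0 CRE, 11 the SMAD box, 15 the GC box and 2 TATA. *Adamts9*, *Adamts3* and *Adam17* rose with IL-1β and were lower in iCre cells with it, and *Adamts12* and *Adamtsl2* rose with TGFβ. *Adam19* rose with TGFβ too and, like *Adam11* and *Adamts10*, had a positive interaction with TNFα. In the sequences, which run 5′ to 3′ on the strand of the gene and end just before the start, capitals mark matches to any of the 6 motifs.
Adamts9, chr6:92943535-92943784, minus strand: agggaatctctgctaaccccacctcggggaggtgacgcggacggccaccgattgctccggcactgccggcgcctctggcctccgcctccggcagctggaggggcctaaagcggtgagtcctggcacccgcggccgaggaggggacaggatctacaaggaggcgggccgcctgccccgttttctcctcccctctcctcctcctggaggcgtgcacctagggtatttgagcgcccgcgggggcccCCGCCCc
Adamts3, chr5:89883335-89883584, minus strand: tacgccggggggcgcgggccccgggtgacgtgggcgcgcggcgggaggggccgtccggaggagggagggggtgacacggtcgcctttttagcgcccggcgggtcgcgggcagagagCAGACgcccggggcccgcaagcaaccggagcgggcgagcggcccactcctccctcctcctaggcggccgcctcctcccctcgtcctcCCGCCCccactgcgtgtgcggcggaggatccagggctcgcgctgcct
Adam17, chr12:21373633-21373882, minus strand: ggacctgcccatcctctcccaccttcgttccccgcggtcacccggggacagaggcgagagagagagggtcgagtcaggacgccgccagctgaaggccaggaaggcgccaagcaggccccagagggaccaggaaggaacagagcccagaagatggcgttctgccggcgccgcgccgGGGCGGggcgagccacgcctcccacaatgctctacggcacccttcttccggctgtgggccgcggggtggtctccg
Adamts12, chr15:11064523-11064772, plus strand: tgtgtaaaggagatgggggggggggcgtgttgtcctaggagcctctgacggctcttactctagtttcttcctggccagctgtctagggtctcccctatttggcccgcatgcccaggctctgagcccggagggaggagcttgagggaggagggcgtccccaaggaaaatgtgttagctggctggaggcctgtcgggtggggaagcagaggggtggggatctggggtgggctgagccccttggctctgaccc
Adamtsl2, chr2:27079129-27079378, plus strand: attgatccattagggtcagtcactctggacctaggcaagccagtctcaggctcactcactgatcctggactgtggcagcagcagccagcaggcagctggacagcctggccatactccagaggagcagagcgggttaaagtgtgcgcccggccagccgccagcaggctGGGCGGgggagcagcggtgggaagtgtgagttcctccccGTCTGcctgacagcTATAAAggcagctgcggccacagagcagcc
Adam19, chr11:46055734-46055983, plus strand: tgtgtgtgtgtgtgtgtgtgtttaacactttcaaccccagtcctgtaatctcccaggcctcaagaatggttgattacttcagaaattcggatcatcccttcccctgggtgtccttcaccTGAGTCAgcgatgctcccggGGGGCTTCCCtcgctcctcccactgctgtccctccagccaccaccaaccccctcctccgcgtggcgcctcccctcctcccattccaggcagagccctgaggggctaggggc
The windows of *Adamts9* and *Adam17* held only GC boxes, that of *Adamts3* a SMAD box and a GC box, that of *Adamts12* none of the 6 motifs, and that of *Adamtsl2* a SMAD box, a GC box and a TATA motif. The window shown of *Adam19* held both the NF-κB and the AP-1 motif, which its other 2 windows did not. Each of those 2 windows held a SMAD box, which the window shown did not. *Adam1b*, with 13 counts in all, was the other member with an NF-κB match. A match describes the letters only, and its absence refers to this window only.

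Among the 7 ADAMTS proteoglycanases, *Adamts9*, which cleaves versican, changed with every ligand in LacZ cells and was lower in iCre cells with IL-1β and TNFα. In LacZ cells it was at 13.1, 18.6, 14.8 and 19.8 CPM in CTRL, 60.6, 72.5, 75.3 and 63.2 CPM with bFGF, 135, 92.6, 121 and 158 CPM with IL-1β and 61.1, 57.2, 62.3 and 91.1 CPM with TNFα. None of these ligand groups overlapped CTRL. The log2 fold changes were 2.95 ± 0.19, adjusted p = 7.34e-06, with IL-1β, 2.04 ± 0.18, adjusted p = 6.10e-05, with TNFα and 2.06 ± 0.14, adjusted p = 0.000245, with bFGF. With TGFβ it was at 8.69, 6.59, 10.4 and 15 CPM and fell (-0.69 ± 0.23, adjusted p = 0.0388), a call that was lost without replicate 1, 2 or 3 (adjusted p = 0.0863 to 0.105).

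In iCre cells *Adamts9* was at 39.7, 38.9, 30.1 and 40.6 CPM with IL-1β and at 25, 19.7, 22.5 and 16 CPM with TNFα, below every LacZ library of the same ligand. The differences were -1.78 ± 0.16, adjusted p = 0.000117, and -1.68 ± 0.18, adjusted p = 0.000251, and with the block and the GC correction they were -1.81 and -1.73. Without ligand, iCre libraries were at 9.88, 29.9, 12.2 and 14.1 CPM and overlapped LacZ libraries, and with bFGF they were at 43.5, 87.7, 66.9 and 34.9 CPM and overlapped as well. The interaction was -1.76 ± 0.38, adjusted p = 0.00757, for IL-1β and -1.68 ± 0.39, adjusted p = 0.00777, for TNFα, and both calls were lost without replicate 3 or 4 (adjusted p = 0.0531 to 0.0778). With TGFβ iCre libraries were at 7.21, 6.85, 4.08 and 4.95 CPM, a difference of -0.85 (adjusted p = 0.092) that passed with the block (-0.81, adjusted p = 0.00888) and in DESeq2 (adjusted p = 0.0207). Exons of *Adamts9* overlap those of *A730049H05Rik* on the opposite strand over 1381 bases, and whether counting used the strand is not given in the sources used here.

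*Adamts5* and *Adamts1* lie 53059 bases apart on chromosome 16 (85856173 to 85901828 and 85793827 to 85803113, GRCm38), on the same strand. *Adamts5*, an aggrecanase, was at 749, 289.6, 576 and 585 CPM in LacZ CTRL, 195, 139.6, 256 and 286 CPM with TGFβ, 1119.7, 502, 728 and 702 CPM with IL-1β and 1229.9, 595, 1074 and 1197 CPM with TNFα. In each of these groups replicate 2 was the lowest. TGFβ lowered it (-1.32 ± 0.29, adjusted p = 0.00533), while the higher values with IL-1β (0.48) and TNFα (0.89) were not called without the block and passed with it (0.50, adjusted p = 3.12e-05, and 0.92, adjusted p = 1.05e-09). DESeq2 without the block called the value with TNFα (adjusted p = 0.0152). With bFGF LacZ libraries were at 599, 212, 431 and 402 CPM, lower than CTRL with the block (-0.41, adjusted p = 0.000278).

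In iCre cells *Adamts5* was at 552, 321, 441 and 419.6 CPM in CTRL, 473, 299, 288 and 213 CPM with bFGF, 148, 63.9, 107 and 72.3 CPM with TGFβ, 502, 248, 341 and 201 CPM with IL-1β and 425, 61.5, 91.4 and 47.7 CPM with TNFα. With TNFα every iCre library was below every LacZ library, although replicate 1 stood well above the other 3. The difference from LacZ was -2.68 ± 0.67, adjusted p = 0.0142, with TNFα, -1.26 ± 0.31, adjusted p = 0.0199, with IL-1β and -1.20 ± 0.29, adjusted p = 0.029, with TGFβ. The groups with IL-1β and TGFβ overlapped. Without replicate 1 the difference with TNFα was -3.83 (range -3.83 to -2.30 when 1 replicate was left out). All 3 calls were lost without replicate 3 or 4 (adjusted p = 0.0681 to 0.216), and those with IL-1β and TGFβ also with the GC correction alone, whereas with the block and the GC correction the values were -2.99, -1.02 and -0.94, all called. The interaction with TNFα was -2.35 ± 0.77, adjusted p = 0.0478, lost without replicate 2, 3 or 4 (adjusted p = 0.0797 to 0.262) and with the GC correction alone (adjusted p = 0.0783). Without replicate 1 it was -3.54. It was -2.79 with the block and -2.59 with block and GC correction (adjusted p = 0.000692 and 0.00111). The interaction with IL-1β passed only with the block (-0.95, adjusted p = 0.0017), as did that with TGFβ (-0.94, adjusted p = 0.0144), and the GC correction added to the block ended the latter. It also ended a lower level of iCre cells in CTRL that passed with the block (-0.30, adjusted p = 0.0318, and 0.0766 with the GC correction).

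*Adamts1*, which cleaves versican and aggrecan, was at 273, 456, 246 and 272 CPM in LacZ CTRL and 291, 250.1, 266 and 308 CPM with TNFα. In iCre cells it was at 383, 794, 335 and 339 CPM in CTRL and 176, 198, 73.4 and 53.3 CPM with TNFα. The iCre libraries with TNFα were thus below all LacZ libraries with TNFα and below all iCre CTRL libraries. The difference from LacZ with TNFα was -1.13 ± 0.37, adjusted p = 0.0469, and the interaction -1.71 ± 0.52, adjusted p = 0.0346. Both calls were lost without replicate 1, 3 or 4 (adjusted p = 0.0539 to 0.185). In LacZ cells *Adamts1* was called with no ligand without the block. With it, TGFβ lowered the level (-0.92, adjusted p = 0.00149; 84.6, 371, 130.3 and 149 CPM) and IL-1β raised it (0.30, adjusted p = 0.0199, or 0.055 with the GC correction added, which ended the call; 493, 394, 291 and 333 CPM). Between iCre and LacZ cells it was then higher in CTRL (0.50, adjusted p = 0.000243) and lower with IL-1β (-0.40, adjusted p = 0.0328; interaction -0.92, adjusted p = 0.00796). With bFGF it was at 222, 569, 189 and 168 CPM in LacZ cells and 257, 1112, 188 and 161 CPM in iCre cells, which were at 335, 496, 234 and 166 CPM with IL-1β and 98.5, 756, 80.4 and 58.4 CPM with TGFβ. Replicate 2 was the highest of its group in 8 of the 10 groups for this gene, as in the plot of ADAMTS levels by library.

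*Adamts4*, an aggrecanase, was at 15.9, 22.9, 14.2 and 14 CPM in LacZ CTRL. It was at 26.9, 70.8, 33.6 and 27.3 CPM with bFGF, 28.6, 31.4, 32.3 and 34.9 CPM with TGFβ, 40.6, 40.6, 38.3 and 46.5 CPM with IL-1β and 21.7, 27.1, 18.3 and 21.6 CPM with TNFα. The first 3 of these groups lay above CTRL without overlap, and the increases were 1.32 ± 0.15, adjusted p = 0.000246, with IL-1β, 1.27 ± 0.31, adjusted p = 0.0281, with bFGF and 0.94 ± 0.15, adjusted p = 0.000588, with TGFβ. The call with bFGF was lost without replicate 1, 3 or 4 (adjusted p = 0.0698 to 0.149), and TNFα passed only with the block (0.42, adjusted p = 0.000347). In iCre cells *Adamts4* was at 21.2, 33.5, 20.5 and 19.3 CPM in CTRL, 33.6, 61.2, 47.2 and 37.6 CPM with bFGF, 40.1, 42.7, 33.7 and 41.5 CPM with TGFβ, 33.3, 45.8, 32.5 and 41.3 CPM with IL-1β and 22.8, 39.1, 35.1 and 28.8 CPM with TNFα. Without the block edgeR called no difference from LacZ cells under any condition, with log2 fold changes from -0.14 (IL-1β) to 0.52 (TNFα). With the block it was higher in iCre cells in CTRL (0.48, adjusted p = 0.000429), with TGFβ (0.28, adjusted p = 0.0283) and with TNFα (0.51, adjusted p = 0.0173; DESeq2 without the block, adjusted p = 0.0449), but the GC correction added to the block moved the latter 2 to 0.071 and 0.31, which were not called. The interaction with IL-1β also passed only with the block (-0.63, adjusted p = 0.00958).

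*Adamts8*, a proteoglycanase with antiangiogenic thrombospondin repeats, was low in LacZ CTRL (1.23, 1.1, 1.65 and 1.16 CPM). It rose to 12.4, 4.12, 10.1 and 6.78 CPM with TNFα (2.69 ± 0.33, adjusted p = 0.000471), 10.2, 2.42, 5.69 and 5.08 CPM with TGFβ (2.20 ± 0.39, adjusted p = 0.00142) and 5.28, 1.53, 2.96 and 3.2 CPM with bFGF (1.34 ± 0.35, adjusted p = 0.035), the last a call that was lost without replicate 1, 3 or 4 (adjusted p = 0.134 to 0.186). Replicate 2 was the lowest library with each of these ligands, and the gene was not called between iCre and LacZ cells with or without the block.

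*Adamts15*, its neighbour on chromosome 9, 20109 bases away on the opposite strand, moved the other way. It was at 26.7, 189.7, 29.8 and 24.8 CPM in LacZ CTRL, 0.0276, 2, 1.82 and 1.06 CPM with TGFβ and 13.3, 11.1, 11.1 and 7.92 CPM with TNFα. TGFβ lowered it by a log2 fold change of -5.73 ± 0.95, adjusted p = 0.000875 (-4.80 without replicate 2), and TNFα by -2.62 ± 0.66, adjusted p = 0.0189, the latter lost without replicate 3 or 4 (adjusted p = 0.0528 to 0.0618), with log2 fold changes of -2.99 to -1.33 when 1 replicate was left out. In iCre cells with TNFα it was at 3.89, 0.69, 0.915 and 0.0973 CPM, below all LacZ libraries (-2.92 ± 0.74, adjusted p = 0.0153; lost without replicate 3, adjusted p = 0.103; -4.08 without replicate 1). With the block it also fell with bFGF in LacZ cells (-2.43, adjusted p = 2.96e-08), and in iCre cells it was higher with bFGF (0.75, adjusted p = 0.000118) and lower with IL-1β (-0.61, adjusted p = 0.027). Replicate 2 was the highest in 8 of the 10 groups. *Adamts20* had means of at most 0.529 CPM in every group and was not called.

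**Figure D3:**
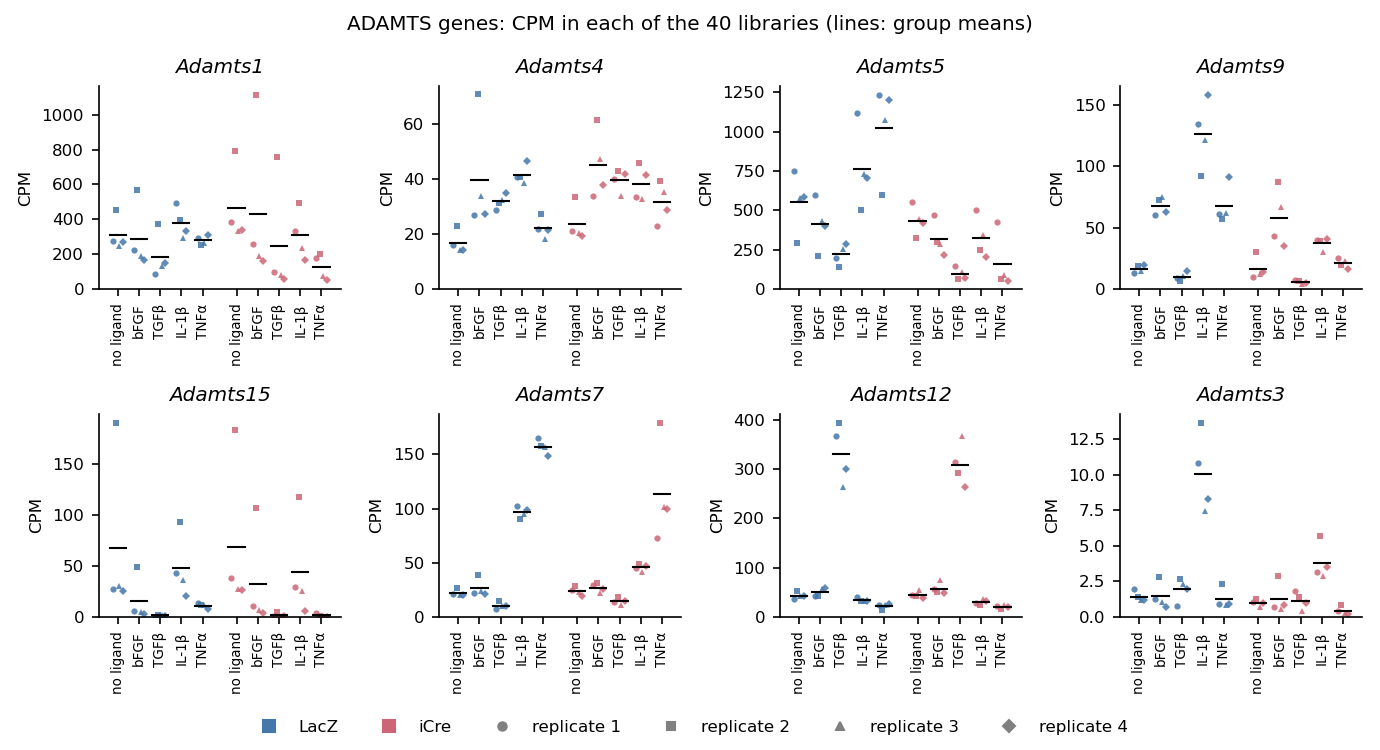
Levels of 8 ADAMTS genes in each of the 40 libraries. The vertical axis of each panel gives CPM from 0, colours separate LacZ and iCre, symbols the replicate numbers, and lines are means. *Adamts9* and *Adamts3* with IL-1β, and *Adamts5* with TNFα, lie higher in LacZ than in iCre cells, and *Adamts12* lies higher with TGFβ than in CTRL in both.

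The 3 procollagen N-proteinases remove the amino-terminal propeptide of fibrillar procollagens, and *Adamts3* also processes the precursor of VEGF-C. *Adamts3* was at 1.92, 1.36, 1.15 and 1.16 CPM in LacZ CTRL and at 10.9, 13.6, 7.44 and 8.28 CPM with IL-1β (2.85 ± 0.25, adjusted p = 5.95e-05), the only ligand with which it was called. In iCre cells with IL-1β it was at 3.18, 5.69, 2.9 and 3.5 CPM, below every LacZ library (-1.41 ± 0.26, adjusted p = 0.00434). The interaction, -0.87, passed only with the block (-0.85, adjusted p = 0.0253). With TNFα a difference of -1.48 (adjusted p = 0.071) passed with the block (-1.55, adjusted p = 0.00539) and in DESeq2 (adjusted p = 0.0197).

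*Adamts14* was at 4.22, 20.3, 7.24 and 9.33 CPM in LacZ CTRL and 32.1, 64.3, 31.6 and 31.6 CPM with TNFα (1.97 ± 0.44, adjusted p = 0.0107), a call that was lost without replicate 3 or 4 (adjusted p = 0.0589 to 0.064). With IL-1β it was higher with the block (1.22, adjusted p = 7.22e-09) and in DESeq2 (adjusted p = 0.0305). *Adamts2*, the member with the highest level per kilobase in CTRL, was at 1103, 719, 979 and 897 CPM in LacZ cells with TNFα and at 794, 277, 379 and 306 CPM in iCre cells. It was lower in iCre cells (-1.05 ± 0.32, adjusted p = 0.0343), although replicate 1 of iCre and replicate 2 of LacZ overlapped, and the call was lost without replicate 3 or 4 (adjusted p = 0.151 to 0.177). With the block *Adamts2* was lower in iCre cells under all 5 conditions, with log2 fold changes of -0.47 in CTRL, -0.59 with bFGF, -0.33 and -0.27 with TGFβ and IL-1β, and -1.18 with TNFα (adjusted p at most 0.0363). The values with TGFβ and IL-1β were -0.52 and -0.45 with block and GC correction.

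*Adamts7* and *Adamts12* cleave COMP. In LacZ cells *Adamts7* was at 21.1, 26.3, 19.9 and 20.5 CPM in CTRL, 102, 90.3, 94.9 and 98.6 CPM with IL-1β and 165, 157, 157 and 149 CPM with TNFα, groups that were far apart with little spread. It rose by 2.15 ± 0.10, adjusted p = 1.31e-06, with IL-1β and by 2.84 ± 0.10, adjusted p = 3.02e-07, with TNFα, and fell with TGFβ to 6.93, 14.3, 9.78 and 10.3 CPM (-1.07 ± 0.19, adjusted p = 0.00139). In iCre cells it was at 25, 28, 22.8 and 19.3 CPM in CTRL and 44.7, 49.1, 41.6 and 46.9 CPM with IL-1β, the latter below all LacZ libraries (-1.10 ± 0.08, adjusted p = 4.35e-05; interaction -1.21 ± 0.15, adjusted p = 0.000107). With TNFα iCre libraries were at 72.4, 179, 102 and 99.1 CPM, where replicate 2 was above every LacZ library and the others below, and no difference was called (-0.45, adjusted p = 0.182), while the interaction passed only with the block (-0.62, adjusted p = 0.0433). Exons of *Adamts7* overlap those of *Tbc1d2b* on the opposite strand over 122 bases.

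*Adamts12* was at 36.6, 51.8, 41.4 and 42.1 CPM in LacZ CTRL and 368, 394, 264 and 300.1 CPM with TGFβ, an increase of 2.97 ± 0.16, adjusted p = 1.22e-06, and fell with TNFα to 23.1, 14.4, 23.2 and 25.6 CPM (-0.99 ± 0.17, adjusted p = 0.00283). The level in iCre cells was 44.4, 41.6, 53.5 and 38.2 CPM in CTRL and 315, 292, 368 and 263 CPM with TGFβ, which overlapped LacZ cells. Its interaction with TGFβ was -0.18 ± 0.20 (adjusted p = 0.767).

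*Adamts6* and *Adamts10*, which act on fibrillin microfibrils, were called with different ligands. *Adamts6* was at 12.7, 26.2, 18.3 and 20.9 CPM in LacZ CTRL and rose to 61.1, 90.3, 56.3 and 66.4 CPM with TGFβ (1.83 ± 0.21, adjusted p = 8.77e-05). With TNFα it was at 16.9, 26.9, 21.6 and 19.3 CPM in LacZ cells and at 9.89, 15.4, 12 and 12 CPM in iCre cells, which had 18.4, 22.5, 20.8 and 22.8 CPM in CTRL (-0.76 ± 0.17, adjusted p = 0.00896; interaction -0.88 ± 0.27, adjusted p = 0.0363). Both calls were lost without replicate 3 or 4 (adjusted p = 0.0506 to 0.229) and with the GC correction alone, and with block and GC correction the values were -0.46 and -0.66, which were called.

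*Adamts10* was at 190.5, 98, 164 and 138 CPM in LacZ CTRL, 67.6, 47.2, 68.7 and 58 CPM with TNFα and 96.1, 73.3, 99.8 and 78.4 CPM with IL-1β. It fell with TNFα (-1.29 ± 0.20, adjusted p = 0.00175) without overlap and with IL-1β (-0.76 ± 0.19, adjusted p = 0.0202), where the call was lost without replicate 1, 3 or 4 (adjusted p = 0.0646 to 0.107). The iCre cells had it at 126, 81.4, 88.5 and 90.5 CPM in CTRL and 87.6, 63.8, 74.9 and 63.9 CPM with TNFα. The interaction with TNFα was 0.90 ± 0.27, adjusted p = 0.0344; it was lost without replicate 3 or 4 (adjusted p = 0.161 to 0.214) and with the GC correction alone, and was 0.66 with block and GC correction. The interaction with TGFβ passed with the block (0.90, adjusted p = 0.00731) and in DESeq2 (adjusted p = 0.0188), and not with block and GC correction (adjusted p = 0.0767).

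Of the 4 other ADAMTS genes, *Adamts17*, which is linked to fibrillin microfibrils, fell with all 4 ligands from a low level. It was at 2.05, 1.62, 2.32 and 1.57 CPM in LacZ CTRL and at 0.297, 0.176, 0.157 and 0.0598 CPM with bFGF (-3.43 ± 0.41, adjusted p = 0.00146), 0.304, 0.8, 0.828 and 0.758 CPM with TGFβ (-1.48 ± 0.34, adjusted p = 0.00572), 0, 0.19, 0.214 and 0.0249 CPM with IL-1β (-4.13 ± 0.63, adjusted p = 0.00145; -4.72 without replicate 2) and 0.0339, 0.175, 0.111 and 0.152 CPM with TNFα (-3.99 ± 0.39, adjusted p = 0.000132). In iCre cells it was lower in CTRL (-1.51, adjusted p = 0.00321) and with TGFβ (-1.44, adjusted p = 0.0274) with the block, and in DESeq2 (adjusted p = 0.0486 and 0.015). *Adamts16* was detected with TGFβ: it was at 0, 0.373, 0 and 0.0581 CPM in LacZ CTRL and 1.6, 1.67, 1.9 and 1.74 CPM with TGFβ (4.01 ± 0.88, adjusted p = 0.00491; 6.59 without replicate 2), and with TGFβ DESeq2 called it lower in iCre cells (adjusted p = 0.0368). *Adamts18* had no counts in LacZ CTRL libraries and 53 of its counts came from iCre TGFβ replicate 2. *Adamts19*, with 27 counts in all, was called lower with TGFβ (-2.94 ± 1.03, adjusted p = 0.0463), but the block ended this call (-3.05, adjusted p = 0.116), and it was lost without replicate 1, 2, 3 or 4 (adjusted p = 0.0869 to 0.203), at -4.47 without replicate 3. *Adamts13*, which cleaves von Willebrand factor, had means of at most 0.102 CPM.

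Among the 5 ADAMTS-like genes, *Adamtsl2*, which binds fibrillin and a latent TGFβ-binding protein, rose with TGFβ. It was at 12.1, 2.79, 6.23 and 4.53 CPM in LacZ CTRL and 118, 151, 175 and 146 CPM with TGFβ, and at 5.37, 0.857, 0.977 and 1.11 CPM and 132, 105, 123 and 80.6 CPM in the same groups of iCre cells. The increase in LacZ cells was 4.53 ± 0.41, adjusted p = 1.85e-05 (5.13 without replicate 1). With the block it fell with IL-1β (-0.87, adjusted p = 3.56e-05) and TNFα (-1.32, adjusted p = 9.81e-07; DESeq2 without the block, adjusted p = 0.00957). No difference between iCre and LacZ cells was called without the block, and with it *Adamtsl2* was lower in iCre cells in CTRL (-1.87, adjusted p = 1.46e-05), with bFGF (-1.23, adjusted p = 0.00419) and with TGFβ (-0.46, adjusted p = 0.00505).

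*Adamtsl1* fell with every ligand, and in iCre cells with TNFα it was almost absent. It was at 25.6, 55.5, 23.3 and 26.8 CPM in LacZ CTRL, 4.72, 5.86, 1.95 and 1.73 CPM with bFGF, 4.28, 8.07, 4.86 and 3.37 CPM with TGFβ, 1.56, 9.07, 1.07 and 0.648 CPM with IL-1β and 6.44, 18.1, 8.1 and 5.08 CPM with TNFα. The log2 fold changes were -3.17 ± 0.44, adjusted p = 0.00268, -2.64 ± 0.33, adjusted p = 0.000154, -3.37 ± 0.73, adjusted p = 0.00883 and -1.79 ± 0.41, adjusted p = 0.0126, in that order, and the last 2 calls were lost without replicate 3 (adjusted p = 0.0535) and without replicate 1, 3 or 4 (adjusted p = 0.0539 to 0.0625). The iCre cells had it at 18.8, 38.7, 11.6 and 7.99 CPM in CTRL and 0.61, 0.309, 0.0779 and 0.162 CPM with TNFα, the latter below every LacZ library (-4.99 ± 0.63, adjusted p = 0.000499; interaction -4.24 ± 0.82, adjusted p = 0.00215), the largest called difference of any member between iCre and LacZ cells. Without replicate 1 the difference was -5.82 and the interaction -4.97, the latter -3.59 without replicate 2, and the decrease with IL-1β was -4.56 without replicate 2. Under the other 4 conditions iCre and LacZ libraries overlapped, and in CTRL the lower level in iCre cells passed only with the block (-0.91, adjusted p = 0.000506).

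*Adamtsl4* and *Adamtsl5*, which bind fibrillin, fell with bFGF, TGFβ and IL-1β. *Adamtsl4* was at 128, 87.3, 132 and 134 CPM in LacZ CTRL, 68, 33.6, 81.5 and 63.3 CPM with bFGF, 59.3, 39.6, 64.1 and 58.2 CPM with TGFβ and 65.4, 69.4, 74.6 and 65.3 CPM with IL-1β. Its log2 fold changes were -0.95 with bFGF, -1.11 with TGFβ and -0.80 with IL-1β (adjusted p = 0.0326, 0.000839 and 0.00289). *Adamtsl5* was at 95.7, 67.1, 78.1 and 80.2 CPM in LacZ CTRL, 66.6, 42.9, 55.9 and 54.7 CPM with bFGF, 35.3, 34.6, 34.1 and 33.7 CPM with TGFβ and 57.4, 61.8, 66.2 and 55.1 CPM with IL-1β. With TNFα *Adamtsl4* was called lower with the block (-0.43, adjusted p = 0.0521, without and -0.41, adjusted p = 0.000541, with it) and by DESeq2 (adjusted p = 0.0329). For both genes none of the other 3 ligand groups overlapped CTRL. The log2 fold changes of *Adamtsl5* were -0.53, -1.21 and -0.41 (adjusted p = 0.0466, 2.35e-05 and 0.0307). The calls with bFGF were lost without replicate 1, 3 or 4 (adjusted p = 0.11 to 0.185) for *Adamtsl4*, and without replicate 1, 3 or 4 (adjusted p = 0.0656 to 0.212) and with the GC correction alone (adjusted p = 0.0677) for *Adamtsl5*. The call of *Adamtsl5* with IL-1β was lost without replicate 1, 3 or 4 (adjusted p = 0.0948 to 0.174). *Adamtsl5* was higher in iCre than in LacZ cells with TGFβ, at 55.7, 45.1, 49 and 46.4 CPM (0.48 ± 0.084, adjusted p = 0.00645). That call was lost without replicate 3 or 4 (adjusted p = 0.0668 to 0.101), with the GC correction alone (adjusted p = 0.367) and with block and GC correction (0.22, adjusted p = 0.107). Its interaction with TGFβ passed with the block (0.54, adjusted p = 0.00813) and in DESeq2 (adjusted p = 0.0261), and not with block and GC correction (adjusted p = 0.147). *Adamtsl3*, at 399 ± 134 CPM in LacZ CTRL (SD, n = 4), was called in no comparison without the block, and with it was lower with IL-1β (-0.43, adjusted p = 0.00014), with TNFα (-0.22, adjusted p = 0.00606) and in iCre cells with TGFβ (-0.25, adjusted p = 0.0365, a call ended by adding the GC correction).

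Of the 9 membrane ADAMs with a catalytic site, *Adam17*, the main sheddase of TNFα and its receptors, changed with 3 ligands. In LacZ cells it was at 108, 139, 112 and 115 CPM in CTRL, 68.5, 84, 75.2 and 84.1 CPM with TGFβ, 185, 198, 192 and 195 CPM with IL-1β and 313, 337, 301 and 287 CPM with TNFα. These 4 groups did not overlap, and the log2 fold changes were -0.59 ± 0.10, adjusted p = 0.000778, for TGFβ, 0.71 ± 0.086, adjusted p = 0.000397, for IL-1β and 1.39 ± 0.093, adjusted p = 1.37e-05, for TNFα. In iCre cells it was at 121, 145, 114 and 119 CPM in CTRL, 143, 146, 127 and 131 CPM with IL-1β and 168, 149.7, 154 and 144 CPM with TNFα.

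With both cytokines every iCre library of *Adam17* was below every LacZ library (-0.51 ± 0.077, adjusted p = 0.00167, for IL-1β, and -0.99 ± 0.093, adjusted p = 0.00015, for TNFα). The interactions were -0.57 ± 0.12, adjusted p = 0.00724, and -1.06 ± 0.13, adjusted p = 8.67e-05, of which the former was lost without replicate 1, 3 or 4 (adjusted p = 0.0703 to 0.0887). With block and GC correction, the differences between iCre and LacZ cells were -0.33 and -0.82, and the interactions -0.46 and -0.94, all called. Exons of *Adam17* overlap those of *Iah1* on the opposite strand over 311 bases.

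*Adam10*, the sheddase that cuts Notch receptors and N-cadherin, had group means between 193 and 246 CPM in LacZ cells and was called with no ligand without the block. With the block it was higher with TGFβ (0.35, adjusted p = 0.00628), IL-1β (0.21, adjusted p = 0.0309) and TNFα (0.18, adjusted p = 0.0163), and DESeq2 called it with TGFβ, while the call with TNFα ended once the GC correction was added to the block. In iCre cells it was at 183, 178, 195 and 181 CPM in CTRL, 139, 113, 143 and 135 CPM with TGFβ, 138, 140.1, 133 and 132 CPM with IL-1β and 145, 133, 148 and 138 CPM with TNFα, and in the last 3 groups every library was below every LacZ library of the same ligand. The differences were -0.93 ± 0.14, adjusted p = 0.00285, -0.73 ± 0.10, adjusted p = 0.000779 and -0.61 ± 0.084, adjusted p = 0.000727. The GC content of *Adam10* is 42.1%, where the members range from 39.6% to 60.1% with a median of 49.7%. With the block and the GC correction the differences were -0.51 (adjusted p = 0.000252), -0.34 (adjusted p = 0.00212) and -0.24 (adjusted p = 0.0737), the last no longer called. With the GC correction alone the calls with TGFβ and TNFα were lost (adjusted p = 0.138 and 0.0935). The interactions were -0.85, -0.65 and -0.54 (adjusted p = 0.00887, 0.00265 and 0.00318), and -0.50, -0.34 and -0.23 with block and GC correction, the last no longer called. All 3 interaction calls were lost without replicate 4 (adjusted p = 0.0512 to 0.146) and with the GC correction alone, and that with TGFβ also without replicate 3.

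*Adam19*, which cuts neuregulin, had the largest positive interaction with TNFα among the called members. In LacZ cells it was at 133, 209, 134 and 142 CPM in CTRL, 313, 319, 359.6 and 308 CPM with bFGF, 390.5, 498, 389 and 393 CPM with TGFβ and 98.1, 106, 88.5 and 101 CPM with TNFα. It rose with bFGF (1.09 ± 0.15, adjusted p = 0.00238; lost without replicate 3, adjusted p = 0.051) and TGFβ (1.46 ± 0.15, adjusted p = 4.88e-05) and fell with TNFα (-0.64 ± 0.14, adjusted p = 0.00924). The level in iCre cells was 135, 236, 144 and 147 CPM in CTRL and 157, 334, 249 and 257 CPM with TNFα, where all 4 libraries were above their own replicate in CTRL. With TNFα all iCre libraries were above all LacZ libraries (1.36 ± 0.19, adjusted p = 0.000855), and the interaction was 1.26 ± 0.30, adjusted p = 0.0089, lost without replicate 3 or 4 (adjusted p = 0.0909 to 0.1) and 1.07 with block and GC correction (adjusted p = 0.000481).

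*Adam12*, which cuts HB-EGF, was at 63.4, 37.5, 71.4 and 56.7 CPM in LacZ CTRL, 146, 282, 173 and 159.6 CPM with TGFβ (1.74 ± 0.25, adjusted p = 0.000319) and 142, 69.1, 122 and 100.2 CPM with IL-1β (0.93 ± 0.24, adjusted p = 0.0218). The IL-1β groups overlapped through replicate 2, and that call was lost without replicate 1, 3 or 4 (adjusted p = 0.0719 to 0.0978). With the block *Adam12* was lower in iCre cells in CTRL and with bFGF, IL-1β and TNFα (-0.47, -0.68, -0.69 and -0.87), and the last 2 were -0.74 and -0.93 with block and GC correction, all called. With TGFβ it was higher in iCre cells with the block (0.31, adjusted p = 0.0295), and not with block and GC correction (adjusted p = 0.0959). With TNFα LacZ cells were lower than CTRL with the block (-0.46, adjusted p = 9.31e-05). *Adam9* was at 483, 318, 491 and 498 CPM in LacZ CTRL and rose with bFGF to 1019, 517, 968 and 970.3 CPM (0.97 ± 0.23, adjusted p = 0.0224; lost without replicate 1, 3 or 4, adjusted p = 0.102 to 0.15), and passed only with the block for the other 3 ligands (0.35 for TGFβ, 0.40 for IL-1β and 0.47 for TNFα). With TGFβ *Adam9* was lower in iCre cells with the block (-0.42, adjusted p = 0.000247; -0.31 with block and GC correction, adjusted p = 0.0101) and in DESeq2 (adjusted p = 0.0239). It was also lower with bFGF (-0.24, adjusted p = 0.0283) and IL-1β (-0.23, adjusted p = 0.0389) with the block, and neither call was kept with block and GC correction. *Adam33* fell with TGFβ (-4.01 ± 0.82, adjusted p = 0.00314) from 5.14, 17.2, 3.21 and 3.14 to 0.248, 1.15, 0.0801 and 0.189 CPM, with replicate 2 highest in both groups. With the block it also fell with IL-1β (-2.02, adjusted p = 1.27e-09), TNFα (-2.03, adjusted p = 4.18e-09) and bFGF (-0.78, adjusted p = 0.0181), of which DESeq2 called that with TNFα (adjusted p = 0.0189).

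*Adam8*, a sheddase known from leukocytes, was called in 1 comparison without the block. With TNFα it was at 5.76, 4.65, 7.79 and 14.9 CPM in LacZ cells and at 14.1, 14.5, 20.4 and 35.4 CPM in iCre cells (1.37 ± 0.40, adjusted p = 0.0289). That call was lost without replicate 1 or 3 (adjusted p = 0.0631 to 0.134) and with the GC correction alone (adjusted p = 0.0627), and was 1.21 with block and GC correction (adjusted p = 0.000124). The interaction passed only with the block (adjusted p = 0.000579). Replicate 4 was the highest in all groups for this gene, and the summed macrophage markers had the same order of extremes, with means over the 10 groups of 103 CPM in replicate 4 and 32.7 CPM in replicate 2. The macrophage sum was 85.6 ± 48.8 CPM in LacZ and 73 ± 43.6 CPM in iCre cells with TNFα (SD, n = 4). *Adam15*, which carries an integrin-binding motif, was called in no comparison without the block and was higher with it for IL-1β and TNFα (0.34 and 0.34), and *Adam28* had means of at most 0.0626 CPM.

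**Figure D4:**
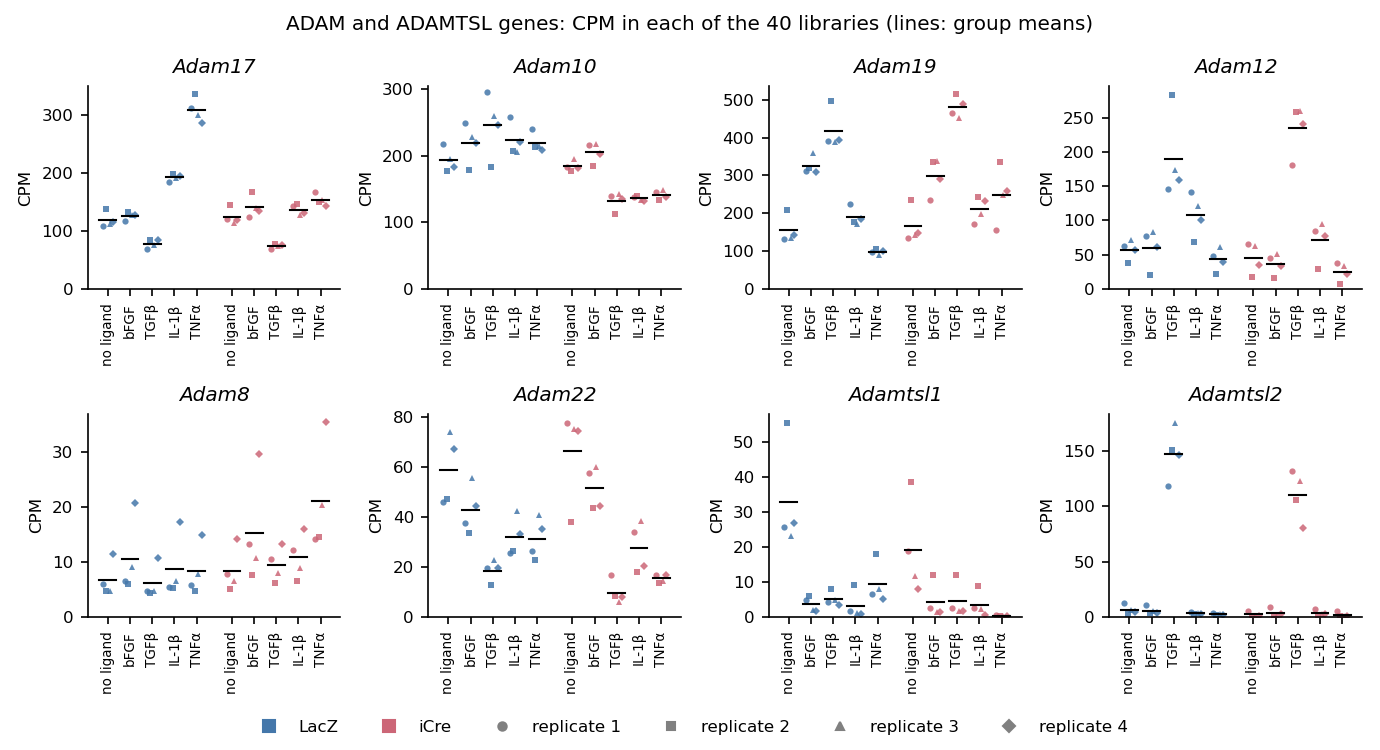
Levels of 6 ADAM and 2 ADAMTSL genes in each of the 40 libraries. The vertical axis of each panel gives CPM from 0, colours separate LacZ and iCre, symbols the replicate numbers, and lines are means. *Adam17* and *Adam10* are lower in iCre than in LacZ cells with IL-1β and TNFα, *Adam19* is higher with TNFα, and *Adamtsl2* lies higher with TGFβ than in CTRL in both.

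The ADAMs without protease activity include *Adam11*, *Adam22* and *Adam23*, known in nerve cells as receptors for LGI proteins. *Adam11* fell with all 4 ligands, from 7.03, 7.11, 6.14 and 5.96 CPM in LacZ CTRL to 3.83, 3.98, 3.2 and 2.57 CPM with bFGF (-0.93 ± 0.18, adjusted p = 0.0109; lost without replicate 1, 3 or 4, adjusted p = 0.0523 to 0.0988), 0.855, 0.729, 1.1 and 1.25 CPM with TGFβ (-2.73 ± 0.21, adjusted p = 7.77e-06), 1.59, 3.85, 2.17 and 1.87 CPM with IL-1β (-1.45 ± 0.26, adjusted p = 0.00339) and 2.03, 2.52, 1.69 and 1.55 CPM with TNFα (-1.75 ± 0.18, adjusted p = 0.000186). In iCre cells it was at 5.66, 7.83, 7.56 and 5.32 CPM in CTRL and 3.41, 3.81, 3.23 and 2.95 CPM with TNFα, the latter above every LacZ library (0.80 ± 0.22, adjusted p = 0.0208; interaction 0.80 ± 0.24, adjusted p = 0.0346). Both calls were lost without replicate 1, 3 or 4 (adjusted p = 0.0555 to 0.176) and with the GC correction alone. With block and GC correction they were 0.55 and 0.59, which were called.

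*Adam22* was at 45.9, 47.3, 73.9 and 67.1 CPM in LacZ CTRL and fell with TGFβ to 19.6, 12.6, 22.5 and 19.3 CPM (-1.65 ± 0.21, adjusted p = 0.000178), with IL-1β to 25.7, 26.2, 42.2 and 33.2 CPM (-0.87 ± 0.20, adjusted p = 0.0123) and with TNFα (-0.91 ± 0.21, adjusted p = 0.0141). The calls with IL-1β and TNFα were both lost without replicate 4 (adjusted p = 0.0725 to 0.0814). With TNFα it was at 26.2, 22.8, 40.7 and 35.3 CPM in LacZ cells and at 16.7, 13.6, 14.3 and 16.5 CPM in iCre cells, which did not overlap and whose CTRL libraries were at 77.7, 38, 75.2 and 74.5 CPM (-1.01 ± 0.18, adjusted p = 0.00253; interaction -1.19 ± 0.32, adjusted p = 0.0192, lost without replicate 1, 3 or 4, adjusted p = 0.0693 to 0.122). With TGFβ *Adam22* was lower in iCre cells with the block (-1.05, adjusted p = 0.00046; -0.83 with block and GC correction, adjusted p = 0.00478) and by DESeq2 (adjusted p = 0.0148), while without it the difference was -0.98 (adjusted p = 0.0816). In LacZ cells it also fell with bFGF with the block (-0.43, adjusted p = 0.000602), and with bFGF it was higher in iCre than in LacZ cells (0.27, adjusted p = 0.0457). *Adam23* was higher in iCre than in LacZ cells with TNFα and TGFβ. It was at 97, 74.2, 69.1 and 102 CPM in LacZ cells and at 173, 107, 141 and 136 CPM in iCre cells with TNFα (0.73 ± 0.17, adjusted p = 0.0101; lost without replicate 3, adjusted p = 0.0805), and at 22.4, 27, 21.4 and 28.8 and 38.2, 38.4, 32 and 33.9 CPM with TGFβ (0.49 ± 0.12, adjusted p = 0.033). The call with TGFβ was lost without replicate 1, 3 or 4 (adjusted p = 0.0711 to 0.179), with the GC correction alone (adjusted p = 0.0621) and in the fit of all 40 libraries. With the block it was higher in iCre cells under all 5 conditions (adjusted p at most 0.0137), and DESeq2 without it also called CTRL (adjusted p = 0.00118). In LacZ cells it fell with TGFβ (-1.37 ± 0.17, adjusted p = 0.00016) from 75.8, 51.8, 51.2 and 80.2 CPM in CTRL, and with the block it was higher with IL-1β (0.51, adjusted p = 1.94e-05; DESeq2 without the block, adjusted p = 0.0308) and TNFα (0.41, adjusted p = 2.27e-05). *Adam32*, with group means of at most 0.614 CPM, was called lower with TNFα (-1.22 ± 0.38, adjusted p = 0.0441), a call that was lost without replicate 1, 2, 3 or 4 (adjusted p = 0.0899 to 0.162). *Adam7*, the fifth of these genes, had 11 counts in all.

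Of the 7 other ADAMs, *Adam5* had the highest level. It fell with all 4 ligands in LacZ cells, from 9.71, 10.3, 9.3 and 8.66 CPM in CTRL to 4.66, 5.69, 5.53 and 3.68 CPM with bFGF (-0.94 ± 0.16, adjusted p = 0.00716; lost without replicate 1 or 3, adjusted p = 0.0518 to 0.0639), 0.552, 0.847, 1.66 and 0.833 CPM with TGFβ (-3.26 ± 0.30, adjusted p = 2.04e-05), 2.52, 4.45, 3.92 and 3.29 CPM with IL-1β (-1.41 ± 0.17, adjusted p = 0.000474) and 3.49, 3.29, 2.85 and 2.77 CPM with TNFα (-1.61 ± 0.13, adjusted p = 4.37e-05). It was not called between iCre and LacZ cells. In all, 32 of the 45 members were called in at least 1 of the 13 comparisons, where 56.9% of all genes were, and 13 in none, of which 3 (*Adam15*, *Adam1a* and *Adamtsl3*) reached 1 CPM in some group. Of the exon bases of *Adam1a*, 63.7% are shared with *Gm42878* on the same strand, so its counts are uncertain. Genes on the opposite strand share 20.6% of the exon bases of *Adam15* (*4731419I09Rik*), 10.6% of *Adamts8* (*Gm29724*), 8.25% and 6.75% of *Adam19* (*Gm16033* and *Gm16034*) and 0.992% of *Adam8* (*Gm16201*), whose counts may hold reads of either gene.

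**Figure D5:**
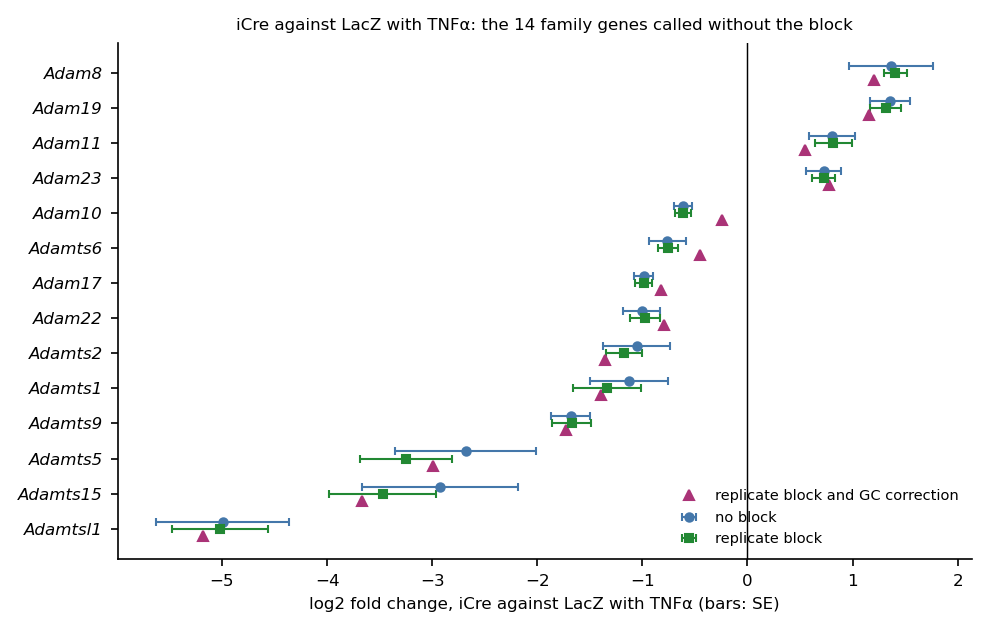
Log2 fold changes of iCre against LacZ cells with TNFα for the 14 members called without the block. Points are the values without the block, squares those with it (bars: SE) and triangles those with block and GC correction. All 3 values lie on the same side of 0 for each gene, from *Adamtsl1* at -4.99 to *Adam8* at 1.37, and *Adam10* is nearest to 0 with block and GC correction.

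The genes around the family were counted from lists of inhibitors and maturation partners, of ADAMTS substrates and of ADAM substrates. Of 18 inhibitors and partners, 1 was higher and 0 lower with bFGF, where 7% and 4.64% of all genes were. With TGFβ 6 were higher and 9 lower, against 17.5% and 19.3% of all genes, and with IL-1β 4 and 4, against 11.1% and 9.54%. With TNFα there were 3 and 4, against 10.9% and 10.4%, or 5 and 8 with the block, against 17.2% and 18.4%. With the block 4 were higher and 4 lower with bFGF, against 14.2% and 13.1%.

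*Timp3*, an inhibitor of ADAM17 and the aggrecanases, rose with TGFβ (2.40 ± 0.49, adjusted p = 0.00298) and fell with IL-1β (-2.19 ± 0.52, adjusted p = 0.0141), and *Timp1* rose with IL-1β (2.53 ± 0.31, adjusted p = 0.000424). *Rhbdf2*, whose product iRhom2 is needed for ADAM17 to mature, rose with IL-1β (1.59 ± 0.094, adjusted p = 6.00e-06) and TNFα (1.34 ± 0.081, adjusted p = 8.06e-06), as *Adam17* did. The proprotein convertase gene *Pcsk5* rose with TGFβ (2.37 ± 0.23, adjusted p = 2.68e-05) and fell with TNFα (-1.12), and *Pcsk6*, of the same family, fell with IL-1β and TNFα (-1.63 and -1.26). *Furin* rose with bFGF and TNFα (0.45 and 0.46). The largest decreases with TGFβ were those of *Papln*, for papilin (-3.15), and *Tspan5*, for a tetraspanin partner of ADAM10 (-1.70). *Papln* was below 1 CPM in both groups, with means of 0.39 CPM in LacZ CTRL and 0.0369 CPM with TGFβ. It reached 1 CPM only in iCre CTRL (1.04 CPM). *Tspan5* had means of 106 and 31.9 CPM in LacZ CTRL and with TGFβ. Where no adjusted p is printed here, it was at most 0.0298.

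In iCre against LacZ cells 1 of the 18 was higher and 1 lower with TGFβ, against 2.51% and 5.87% of all genes, or 7 in all with the block, against 20.8%, and 0 and 4 with block and GC correction, against 4.44% and 4.77%. With IL-1β 3 were higher and 2 lower, against 7.14% and 8.98%, or 7 and 5 with the block, against 14.6% and 14.9%. With TNFα 5 were higher and 3 lower, against 14.8% and 12.6%, or 8 and 4 with the block, against 17.1% and 15.1%. *Rhbdf2* was lower with IL-1β (-0.97 ± 0.15, adjusted p = 0.00167; -1.23 with block and GC correction) and had a negative interaction with it (-0.68), whereas *Rhbdf1*, for iRhom1, was higher (0.65; 0.43 with block and GC correction). *Pcsk5* was lower with IL-1β (-1.89 ± 0.26, adjusted p = 0.00103) and TNFα (-1.47 ± 0.32, adjusted p = 0.00668), and *Pcsk6* with TGFβ and TNFα (-0.88 and -1.40). *Timp2* was higher with IL-1β and TNFα (0.60 and 0.79), and *Timp1* with TNFα (1.11 ± 0.25, adjusted p = 0.00789; interaction 1.73 ± 0.35, adjusted p = 0.00318). *Frmd8*, whose product binds the iRhoms, was higher with TGFβ (0.37), a call that block and GC correction ended (0.13), and *Tspan14* had a positive interaction with TNFα (0.68). Those log2 fold changes printed without an adjusted p had one of at most 0.0422.

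Of 16 ADAMTS substrates, 10 were higher and 1 lower with TGFβ, where 17.5% and 19.3% of all genes were, and their median log2 fold change was 1.19. With bFGF 0 were higher and 1 lower, against 7% and 4.64%, with IL-1β 4 and 0, against 11.1% and 9.54%, and with TNFα 2 and 3, against 10.9% and 10.4%. With the block 8 of the 16 were called for bFGF, 7 for IL-1β and 8 for TNFα, against 27.3%, 33.5% and 35.5% of all genes. *Acan*, the gene for aggrecan, had the largest change (9.55 ± 0.79, adjusted p = 1.11e-05), from 0.0873 ± 0.0308 CPM in CTRL to 67.7 ± 52.4 CPM with TGFβ (SD, n = 4). *Col2a1* was next (4.49 ± 0.81, adjusted p = 0.00151), and *Vwf*, for von Willebrand factor, fell (-1.71). *Vcan*, the gene for versican, rose with IL-1β (1.34 ± 0.31, adjusted p = 0.0129), the ligand with which *Adamts9* rose most. *Vegfc* rose with IL-1β (1.20) and TNFα (2.42 ± 0.15, adjusted p = 8.11e-06), and *Fbn1*, for fibrillin, with TNFα (0.76). *Comp* fell with TNFα (-1.79 ± 0.45, adjusted p = 0.0181), and *Col3a1* with bFGF and TNFα (-1.02 and -0.78). The other changes, printed without it, had an adjusted p of at most 0.0437.

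In iCre against LacZ cells with IL-1β, 1 of the 16 was higher (*Col2a1*, 2.57) and 2 were lower (*Col3a1*, -1.26, and *Col1a1*, -0.96; adjusted p at most 0.0471), against 7.14% and 8.98% of all genes. With TNFα 1 was higher (*Col2a1*, 3.54 ± 0.72, adjusted p = 0.00518) and 6 were lower, led by *Col3a1* (-1.77 ± 0.43, adjusted p = 0.012) and *Vegfc* (-1.11 ± 0.29, adjusted p = 0.0178), against 14.8% and 12.6%. With the block 12 of the 16 were called with IL-1β and 7 with TGFβ, against 29.5% and 20.8%, the latter 4 with block and GC correction, against 9.21%. The interaction of *Vegfc* with TNFα was -1.31 ± 0.41, adjusted p = 0.0391.

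Of 30 ADAM substrates, 11 were higher and 2 lower with bFGF, where 7% and 4.64% of all genes were, or 17 and 7 with the block, against 14.2% and 13.1%. With TGFβ 8 were higher and 9 lower, against 17.5% and 19.3%, with IL-1β 13 and 4, against 11.1% and 9.54%, and with TNFα 13 and 2, against 10.9% and 10.4%. With the block 18 were higher and 7 lower with IL-1β, where 33.5% of all genes were called in either direction. With TNFα 15 were then higher and 7 lower, against 17.2% and 18.4%. *Hbegf*, the gene for heparin-binding EGF, rose with TGFβ (4.78 ± 0.20, adjusted p = 6.45e-07) and bFGF (2.55 ± 0.35, adjusted p = 0.0024). Of the other EGF receptor ligands, *Ereg*, for epiregulin, rose with IL-1β (3.01 ± 0.21, adjusted p = 1.22e-05) and *Areg*, for amphiregulin, with bFGF (2.78), while *Btc*, for betacellulin, and *Tgfa* fell with TGFβ (-3.54 and -1.62). The level of *Areg* was low, with means of 0.15 CPM in LacZ CTRL and 1.01 CPM with bFGF. *Icam1* and *Vcam1*, adhesion molecules that are shed, rose with TNFα (3.27 ± 0.28, adjusted p = 5.21e-05, and 3.14 ± 0.13, adjusted p = 8.99e-07). *Cx3cl1*, for fractalkine, rose with TGFβ (2.41) and *Tnfsf11*, for RANKL, with IL-1β (2.87). Decreases were led by *Notch3* and *Sdc1* with bFGF (-0.92 and -0.59), *Jag1* and *Notch3* with IL-1β (-1.39 and -1.15) and *Mertk* and *Notch1* with TNFα (-0.84 and -0.52). The changes printed without an adjusted p had one of at most 0.0455.

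In iCre against LacZ cells with TNFα, 4 of the 30 were higher and 8 lower, where 14.8% and 12.6% of all genes were. *Areg* (4.69 ± 0.79, adjusted p = 0.00202) and *Hbegf* (3.05 ± 0.41, adjusted p = 0.000657) were higher, and *Icam1* (-2.06 ± 0.31, adjusted p = 0.00114) and *Jag1* (-1.95 ± 0.63, adjusted p = 0.0428) lower. With IL-1β 5 were higher and 5 lower, against 7.14% and 8.98%, or 9 and 11 with the block, against 14.6% and 14.9%. *Btc* and *Hbegf* led the former (1.47 and 1.43), and *Cxcl16*, for a membrane-bound chemokine, and *Kitl*, for stem cell factor, the latter (-1.65 and -1.49). With block and GC correction *Btc* was at 2.21 and *Kitl* at -0.88, both called. With TGFβ 1 was higher (*Pdgfrb*, 0.38, a call that block and GC correction ended at 0.17) and 1 lower (*Kitl*, -1.69, nearer to 0 by over 1.5 times with block and GC correction, adjusted p = 0.000176), against 2.51% and 5.87%, or 7 in all with the block, against 20.8%. The interactions called included *Hbegf* (2.49), *Icam1* (-1.98) and *Vcam1* (-1.82) with TNFα, *Kitl* (-1.84) and *Cd44* (-1.41) with IL-1β, and *Kitl* (-2.03) and *Sdc4* (-0.73) with TGFβ. Where none is printed, the adjusted p was at most 0.0415. In CTRL and with bFGF edgeR called no gene of the 3 lists between iCre and LacZ cells without the block. With it, 12, 9 and 18 genes of the lists, in the order above, were called in CTRL, where 14.5% of all genes were, and 8, 7 and 8 with bFGF, against 13.9%.

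Across the 10 group means, the genes whose level was most like that of the 3 best-known proteoglycanases were found among 13090 genes, as a description. For *Adamts1* they were *Rev3l* (r = 0.958), *Tenm3* (0.948) and *Adamts15* (0.945), for *Adamts4* *Ctnnb1* (0.918), *Ptprn* (0.892) and *Lsm11* (0.89), and for *Adamts5* *Zfp652* (0.983) and *Abi3bp* (0.978). The points share the same 10 groups of libraries, and *Adamts1* and *Adamts15* share the high values of replicate 2.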

How the data were processed

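RNA was sequenced from 40 libraries, 4 in each of 10 groups set by the labels. The authors aligned reads to mm10 with STAR and the deposited values are raw counts per gene, made with HTSeq 0.10.0, per the labels and methods. Quality control used FastQC (0.10.1 in the submitters' processing notes, another version in the methods). Strand setting and annotation release are not given in the sources used here, and the library kit is named differently in the labels (NEBNext Ultra II) and the methods (TruSeq Stranded mRNA). The authors' test was DESeq2.

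From these counts, genes with at least 10 in total (25210) were scaled by TMM and tested in edgeR 4.0.16 (R 4.3.3, quasi-likelihood F-test) in 2-group fits of 8 libraries, or 16 for interactions, with Benjamini-Hochberg adjustment. Same-numbered libraries deviated together (lowest r = 0.28 over 13090 genes), a pairing read from the data and the shared numbers in the labels. The study calls the replicates biological and male, and does not say whether a number marks 1 isolation. Alternatives were DESeq2 1.42.0, RLE scaling, other filters, protein-coding genes only, 1 fit of all libraries, a fold limit, each replicate left out, the replicate block and a GC correction. Tests were checked on simulated counts: 84% of 200 changed genes were recovered for IL-1β in LacZ cells and 62% for its interaction. Each simulated library was drawn independently, without a shared deviation of a replicate number and without a GC trend. Only genes at 1 CPM or more were changed, by a log2 fold change of 1 or 2 in either direction. These rates thus need not hold for the real libraries. Members, lists and motifs were chosen with earlier results of these data known. Values in every library are given for *Adamts1*, *Adamts4* and *Adamts5*, and in the groups of their calls without the block for members that reached a mean of 1 CPM in some group and were called with an absolute log2 fold change of at least 1; others are named as examples of their group. From the lists around the family, the 2 largest called changes in each direction were named where a group mean reached 1 CPM. Some genes of the lists and comparisons are not reported here.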

Additional observations from a re-analysis of the deposited data

Results flagged for a closer look

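In 280 member and group combinations of 4 libraries, 50 had a library whose gap to its nearest neighbour passed Dixon's test at the 0.05 level, where chance sets apart about 1 in 20 groups. Replicate 2 was the library set apart in 40 of them, replicate 1 in 5, replicate 3 in 2 and replicate 4 in 3. As the highest of its group, replicate 2 stood apart as follows. *Adam11* was at 7.5 CPM in iCre bFGF. *Adam19* was at 209 CPM in LacZ CTRL, 498 CPM in LacZ TGFβ and 236 CPM in iCre CTRL. *Adam33* was at 17.2 CPM in LacZ CTRL, 15.2 CPM in LacZ bFGF, 1.15 CPM in LacZ TGFβ, 6.79 CPM in LacZ IL-1β, 4.68 CPM in LacZ TNFα, 21 CPM in iCre CTRL, 21.6 CPM in iCre bFGF, 4.18 CPM in iCre TGFβ and 6.68 CPM in iCre TNFα. *Adamts1* was at 456 CPM in LacZ CTRL, 569 CPM in LacZ bFGF, 794 CPM in iCre CTRL, 1112 CPM in iCre bFGF and 756 CPM in iCre TGFβ. *Adamts14* was at 64.3 CPM in LacZ TNFα. *Adamts15* was at 189.7 CPM in LacZ CTRL, 48.5 CPM in LacZ bFGF, 183 CPM in iCre CTRL, 107 CPM in iCre bFGF and 5.07 CPM in iCre TGFβ. *Adamts16* was at 0.373 CPM in LacZ CTRL, 1.41 CPM in LacZ IL-1β and 0.384 CPM in LacZ TNFα. *Adamts3* was at 2.31 CPM in LacZ TNFα and 2.84 CPM in iCre bFGF. *Adamts4* was at 70.8 CPM in LacZ bFGF and 33.5 CPM in iCre CTRL. *Adamts6* was at 20.7 CPM in LacZ IL-1β. *Adamts7* was at 38.3 CPM in LacZ bFGF. *Adamtsl1* was at 55.5 CPM in LacZ CTRL, 9.07 CPM in LacZ IL-1β, 12 CPM in iCre bFGF and 11.9 CPM in iCre TGFβ.

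Replicate 2 was the lowest and set apart for 3 genes: *Adam22* (38 CPM in iCre CTRL), *Adamts8* (1.92 CPM in iCre bFGF) and *Adamtsl4* (87.3 CPM in LacZ CTRL). Among the other libraries, those set apart as the highest were replicate 1 of *Adamts12* (40.5 CPM in LacZ IL-1β), replicate 1 of *Adamts5* (425 CPM in iCre TNFα), replicate 1 of *Adamtsl2* (5.37 CPM in iCre CTRL and 4.91 CPM in iCre TNFα), replicate 3 of *Adamts16* (0.0305 CPM in iCre bFGF), replicate 4 of *Adam8* (10.7 CPM in LacZ TGFβ and 17.2 CPM in LacZ IL-1β) and replicate 4 of *Adamts9* (91.1 CPM in LacZ TNFα). Those set apart as the lowest were replicate 1 of *Adamts17* (0.304 CPM in LacZ TGFβ) and replicate 3 of *Adamts9* (30.1 CPM in iCre IL-1β).

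The response to a ligand differed between iCre and LacZ cells, by the interaction term, in 16 cases given on the log2 scale. With TNFα these were *Adam10* (-0.54), *Adam11* (0.80), *Adam17* (-1.06), *Adam19* (1.26), *Adam22* (-1.19), *Adamts1* (-1.71), *Adamts10* (0.90), *Adamts5* (-2.35), *Adamts6* (-0.88), *Adamts9* (-1.68) and *Adamtsl1* (-4.24). With IL-1β they were *Adam10* (-0.65), *Adam17* (-0.57), *Adamts7* (-1.21) and *Adamts9* (-1.76), and with TGFβ *Adam10* (-0.85).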

How the results depend on the processing

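Each comparison was repeated under 14 alternative settings. Of 103 calls of a member in a comparison, 56 held under every alternative other than the fold limit that gave a value, and 47 with the fold limit as well, which left 69 of the 103. None reversed direction under any of them, and 5 values were not given by an alternative. Leaving out replicate 3 ended 41 calls, replicate 4 38, replicate 1 22 and replicate 2 4. The GC correction alone ended 17, the fit of all 40 libraries 14, block and GC correction 4, no filter on low counts 2 and DESeq2 1. The calls ended by the fit of all 40 libraries were those of *Adam12* and *Adamtsl5* with IL-1β, *Adam32*, *Adamts15* and *Adamtsl1* with TNFα and *Adamts19* with TGFβ, for iCre against LacZ those of *Adam23* with TGFβ, *Adamts5* with TGFβ and IL-1β, and *Adamts1* and *Adamts6* with TNFα, and the interactions of *Adam11*, *Adamts1* and *Adamts6* with TNFα. With the replicate block the counts of called members were 19 (bFGF), 28 (IL-1β) and 27 (TNFα) in LacZ cells, for iCre against LacZ 11 (CTRL), 13 (bFGF), 16 (TGFβ) and 18 (IL-1β), and for the interactions 5 (TGFβ), 13 (IL-1β) and 17 (TNFα). The block ended 1 call, that of *Adamts19* with TGFβ, and ended no other. With block and GC correction the counts were 20, 27 and 26 for these ligands, 10, 11, 12 and 18 for iCre against LacZ, and 1, 12 and 17 for the interactions with TGFβ, IL-1β and TNFα.

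With the GC correction alone, no member was called for iCre against LacZ with TGFβ (0) or for its interaction (0), and 6 for the interaction with TNFα. DESeq2 called 2 members for iCre against LacZ in CTRL, 9 with TGFβ and 3 for the interaction with TGFβ, and the fit of all 40 libraries 1 for iCre against LacZ in CTRL and 2 for the interaction with TGFβ. Calls with an absolute log2 fold change of at least 1 numbered 6 with bFGF and 8 with IL-1β, for iCre against LacZ 1 with TGFβ and 9 with TNFα, and for the interactions 0 (TGFβ), 2 (IL-1β) and 7 (TNFα), since this setting only drops smaller changes. Leaving out 1 replicate gave 3 to 15 members with bFGF, and for iCre against LacZ 0 to 4 in CTRL, 1 to 10 (TGFβ), 5 to 12 (IL-1β) and 6 to 19 (TNFα). For the interactions it gave 0 to 4 (TGFβ), 1 to 6 (IL-1β) and 2 to 13 (TNFα), the highest counts being those without replicate 2. The cause of the other shifts was not tested. Counts were low for the 12 members below 1 CPM in every group, of which *Adamts19* and *Adam32* were each called in 1 comparison. Both calls were lost when any replicate was left out.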
